A study of Mus musculus with 2 samples.

Results

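Cell cycle genes were followed in immune cells sorted from the lamina propria of the mouse small intestine, as a module of 37 genes among the 31053 genes of the count matrices. The module was taken by symbol from the gene lists of both libraries, and every one of the 37 symbols had a row. It holds 12 genes of G1/S and S phase, 18 genes of G2 and mitosis, the tubulin regulator Stmn1 and the chromatin protein gene Hmgb2, 3 D cyclins and 2 inhibitors of cyclin-dependent kinases. A first library came from Zfp36-/- mice (Zfp36_KO) and another from wild-type mice (WT), both on the C57BL/6 strain. Each library was 1 pool of sorted cells from 4 mice, so there is no replicate, no test was possible, and every interval below is a 95% interval that covers counting error only. The labels used here give neither age nor sex. Zfp36 encodes tristetraprolin, a protein that binds AU-rich elements in messenger RNAs and promotes their decay. The sort took live CD45+ cells that carried CD90.2 and CD127 and lacked lineage markers, CD3 and TCRβ, a gate for innate lymphoid cells (ILCs), the tissue lymphocytes that lack rearranged antigen receptors.

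Dividing cells copy their DNA in S phase and separate the copies in mitosis. E2F transcription factors, held back by RB proteins until cyclin D kinases act, switch on the S phase genes, and the MuvB complex with B-Myb and FOXM1 later switches on the mitotic genes. ILCs of the adult gut are largely tissue-resident and are maintained in part by local division, which makes Mki67, a gene transcribed in cycling and not in resting cells, a common readout of their renewal.

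Promoters are shown because the S phase and G2/M genes of the module differ in the short words known for each programme. RefSeq promoter windows on GRCm38.p6, from 250 bases before to 50 bases after the annotated start, were found for 29 of the 37 members. The windows below are printed 5′ to 3′ on the strand of the gene, with capitals for 3 kinds of word searched on both strands. The words are TTTGAA or TTCGAA, the cell cycle homology region bound by MuvB, CCAAT, the word of the factor NF-Y, and the E2F words TTTCCCGC, TTTGGCGC, TTTCGCGC and TTTGCCGC. Mki67 and Top2a are the genes that define a proliferating cell here, Ccnb2 is a mitotic cyclin, Mcm3 and Mcm6 are subunits of the replicative helicase, and Cdkn1b encodes a kinase inhibitor that differed between the libraries in ILCs.
Mki67, chr7:135716330-135716629, minus strand: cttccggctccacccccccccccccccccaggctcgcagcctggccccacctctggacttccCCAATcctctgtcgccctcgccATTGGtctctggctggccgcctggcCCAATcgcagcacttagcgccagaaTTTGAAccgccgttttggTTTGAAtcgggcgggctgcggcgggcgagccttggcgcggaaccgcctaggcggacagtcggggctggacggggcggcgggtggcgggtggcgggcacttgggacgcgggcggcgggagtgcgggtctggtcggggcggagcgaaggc
Top2a, chr11:99024140-99024439, minus strand: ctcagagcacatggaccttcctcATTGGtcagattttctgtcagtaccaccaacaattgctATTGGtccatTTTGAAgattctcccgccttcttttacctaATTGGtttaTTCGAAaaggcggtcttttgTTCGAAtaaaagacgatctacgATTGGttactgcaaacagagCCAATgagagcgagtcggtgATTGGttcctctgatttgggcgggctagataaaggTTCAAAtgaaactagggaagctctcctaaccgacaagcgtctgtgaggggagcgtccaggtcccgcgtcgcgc
Ccnb2, chr9:70421505-70421804, minus strand: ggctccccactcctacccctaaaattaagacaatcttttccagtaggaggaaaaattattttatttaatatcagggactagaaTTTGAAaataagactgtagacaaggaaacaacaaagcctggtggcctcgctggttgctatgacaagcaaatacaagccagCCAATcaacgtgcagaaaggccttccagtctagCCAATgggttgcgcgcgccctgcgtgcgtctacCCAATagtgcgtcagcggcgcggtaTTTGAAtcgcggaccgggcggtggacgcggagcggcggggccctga
Mcm3, chr1:20820263-20820562, minus strand: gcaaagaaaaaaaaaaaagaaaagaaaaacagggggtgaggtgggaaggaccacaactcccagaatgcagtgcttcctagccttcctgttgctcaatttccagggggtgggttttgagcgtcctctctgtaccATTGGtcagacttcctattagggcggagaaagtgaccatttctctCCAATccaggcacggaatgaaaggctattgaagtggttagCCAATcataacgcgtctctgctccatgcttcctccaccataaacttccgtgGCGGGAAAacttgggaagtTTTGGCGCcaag
Mcm6, chr1:128359656-128359955, minus strand: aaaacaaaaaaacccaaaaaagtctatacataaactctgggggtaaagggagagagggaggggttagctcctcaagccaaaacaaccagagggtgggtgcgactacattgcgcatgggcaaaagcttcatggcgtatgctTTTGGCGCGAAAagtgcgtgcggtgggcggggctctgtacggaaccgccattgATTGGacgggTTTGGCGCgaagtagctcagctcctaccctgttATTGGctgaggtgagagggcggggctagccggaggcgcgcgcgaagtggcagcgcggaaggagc
Cdkn1b, chr6:134920151-134920450, plus strand: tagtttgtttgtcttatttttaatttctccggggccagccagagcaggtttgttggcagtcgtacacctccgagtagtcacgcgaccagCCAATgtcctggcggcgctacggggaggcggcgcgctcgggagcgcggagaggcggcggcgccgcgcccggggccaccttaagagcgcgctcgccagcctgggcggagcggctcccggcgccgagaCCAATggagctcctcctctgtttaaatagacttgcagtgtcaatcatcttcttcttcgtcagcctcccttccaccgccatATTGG

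The homology word stood in the windows of 11 of 15 G2/M members (73.3%) and 2 of 10 S phase members (20%), against 21.7% of 27025 genes with a window. CCAAT stood in 13 of 15 G2/M members (86.7%) and 9 of 10 S phase members (90%), against 41.1% of all genes. An E2F word stood in 1 of 15 G2/M members (6.67%) and 5 of 10 S phase members (50%), against 2.60% of all genes. In Mcm6 the capital run near position -110 holds 2 E2F words that overlap, and the Mki67 window has homology words at -116 and -98. The window of Cdkn1b holds CCAAT and neither of the other words. A word is a match of letters and not a measured binding site, and no window was tied to a measured level.

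The Zfp36_KO library held 3522 barcodes with 27733804 unique molecular identifiers (UMIs, each standing for 1 captured transcript), and the WT library 3593 barcodes with 24721524 UMIs. After filtering, 3302 Zfp36_KO cells with a median of 5320 UMIs and 3360 WT cells with a median of 5293 UMIs remained, and the libraries shared 2 barcodes. Zfp36 itself stood at 378 CPM (UMIs of the gene scaled to a common library total) in the Zfp36_KO library and 634 CPM in the WT library. The deleted part of the gene is not stated, so these 3′ tags do not check the knockout. Of the Zfp36_KO cells, 447 carried Y-linked and no Xist UMIs, and no WT cell did, so the pools also differed in cells of male type. Proliferating cells made up 5.15% of those 447 cells and 5.17% of the 2555 Zfp36_KO cells of female type.

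Cells were placed in a class by counting how many marker genes of each cell type they expressed. The classes included T cells, dendritic cells, macrophages and plasma cells, which the sort was meant to exclude. The T cell gate held 43 Zfp36_KO cells and 1107 WT cells, and the ILC2 gate 1150 Zfp36_KO cells and 635 WT cells. In the T cell gate the T cell markers differed in how far the libraries matched. Trac, the constant part of the receptor alpha chain, was found in 30.2% of Zfp36_KO and 93.4% of WT cells, while Trbc2, a constant part of the beta chain, was found in 97.7% of Zfp36_KO and 97.9% of WT cells. Cd3g, a signalling chain gene of the receptor complex, was found in 93% of Zfp36_KO and 98.5% of WT cells. The other listed markers, Cd3d, Cd3e, Cd5, Cd6, Cd8a and Lat, were all found in a smaller share of Zfp36_KO cells. Cd6 was found in 11.6% of Zfp36_KO and 64.2% of WT cells, and Cd3d in 69.8% of Zfp36_KO and 95.6% of WT cells. Lat was closer, at 79.1% of Zfp36_KO and 87.3% of WT cells. The other large classes had at least 2-fold more of most of their markers than the rest of their library. The counts were 9 of 10 ILC2 markers in Zfp36_KO and 10 of 10 in WT, and 8 of 10 ILC1/NK markers in Zfp36_KO and 9 of 10 in WT. Cells were placed by these same markers, so such an excess is built into the gate and does not check the class names.

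Proliferating cells, defined as cells with at least 2 UMIs of Mki67 and Top2a together, were more frequent in the Zfp36_KO library as a whole, while within ILC3 the order of the libraries depended on the class gate. Top2a encodes the topoisomerase that untangles replicated DNA. They numbered 175 of 3302 Zfp36_KO cells (5.30%, 4.56 to 6.12) and 102 of 3360 WT cells (3.04%, 2.48 to 3.67), a difference of 2.26 points (1.31 to 3.24). Among ILC2, the type 2 cytokine producers, there were 40 of 1150 (3.48%) in Zfp36_KO and 18 of 635 (2.83%) in WT. The ILC2 difference of 0.644 points had an interval of -1.20 to 2.25 and so was not detectable with these cells. With classes from clusters the order turned, with 51 of 1365 ILC2 (3.74%) in Zfp36_KO and 31 of 753 (4.12%) in WT. Among ILC3, the RORγt-dependent producers of IL-22, there were 10 of 1095 (0.913%) in Zfp36_KO and 10 of 961 (1.04%) in WT, a difference of -0.127 points (-1.09 to 0.768). With mixed lymphoid cells kept, ILC3 had 16 of 1141 (1.40%) in Zfp36_KO and 10 of 984 (1.02%) in WT, the opposite order. By the marker gate, ILC1 and NK cells had 5 of 170 (2.94%) in Zfp36_KO and 3 of 190 (1.58%) in WT. By this gate ILC3 had the lowest share of the named classes in both libraries. ILC3 also had the lowest median depth, at 3800 UMIs in Zfp36_KO and 4509 UMIs in WT. With classes from clusters ILC3 was not the lowest. WT then had 1 of 179 ILC1 and NK cells (0.559%) and 7 of 1006 ILC3 (0.696%), and Zfp36_KO had 0 of 24 T cells.

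**Figure D1:**
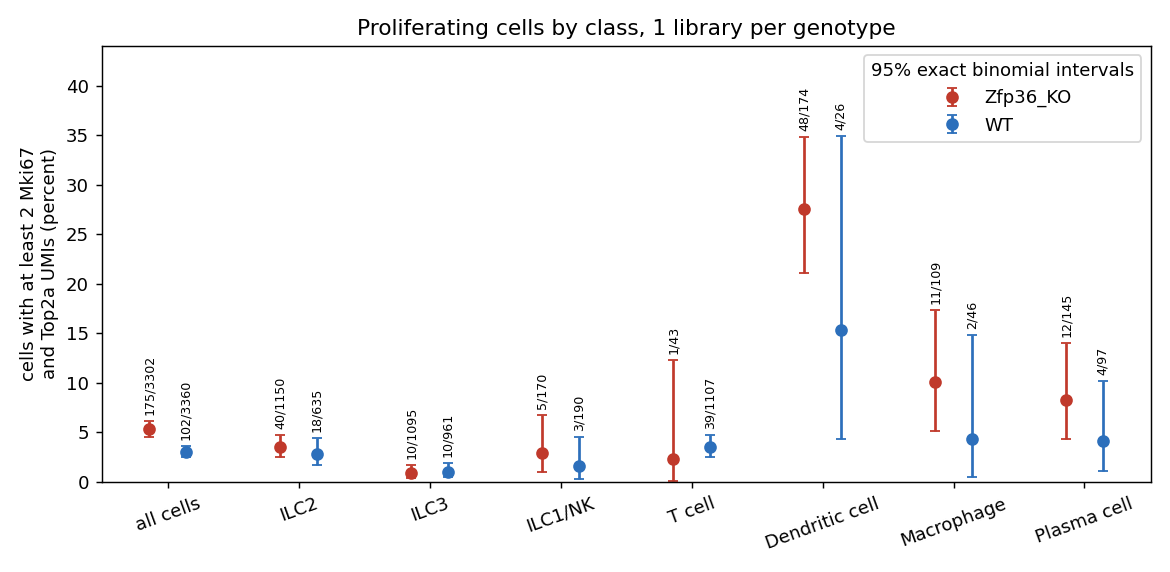
Percent of cells with at least 2 Mki67 and Top2a UMIs in each class, Zfp36_KO left and WT right, 1 library each; points are shares, bars are exact binomial intervals and the labels give proliferating over all cells. The intervals of ILC2 and of ILC3 overlap between libraries, while dendritic cells stand highest among classes of more than 25 cells per library, at 27.6% in Zfp36_KO and 15.4% in WT.

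The highest share among classes of more than 25 cells per library was that of dendritic cells, the antigen-presenting cells, with 48 of 174 (27.6%, 21.1 to 34.9) in Zfp36_KO and 4 of 26 (15.4%, 4.36 to 34.9) in WT. The dendritic cell difference of 12.2 points had an interval of -6.94 to 23.8. The 2 gates held different mixes, with UMIs of the dendritic cell marker Xcr1 in 6.32% of Zfp36_KO and 42.3% of WT cells. Dendritic cells without an Xcr1 UMI had 45 of 163 (27.6%) in Zfp36_KO and 4 of 15 (26.7%) in WT. Those with an Xcr1 UMI had 3 of 11 in Zfp36_KO and 0 of 11 in WT. Macrophages had 11 of 109 (10.1%) in Zfp36_KO and 2 of 46 (4.35%) in WT, and plasma cells 12 of 145 (8.28%) in Zfp36_KO and 4 of 97 (4.12%) in WT. The T cell gate held 1 proliferating cell of 43 in Zfp36_KO and 39 of 1107 (3.52%) in WT. That Zfp36_KO cell had UMIs of Trbc2, Cd3g, Cd5, Cd6 and Lat and none of Trac, Cd3d, Cd3e or Cd8a. Cells left without a class had 45 of 410 (11%) in Zfp36_KO and 18 of 281 (6.41%) in WT, a difference of 4.57 points (0.174 to 8.68). The few B cells had 3 of 6 in Zfp36_KO and 4 of 15 in WT. In dendritic cells, macrophages, plasma cells and cells without a class the Zfp36_KO share was the higher one, and among these 4 groups the interval of the difference left out 0 for cells without a class.

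The composition of the libraries moved with the overall share. With the Zfp36_KO shares of each class and the WT class sizes the library share came to 3.58%, and with the WT shares and the Zfp36_KO class sizes it came to 3.44%. The measured shares were 5.30% in Zfp36_KO and 3.04% in WT. The value of 3.58% gives the T cell gate the weight of its 1107 WT cells. The Zfp36_KO share of that gate was 1 of 43 (2.33%, 0.0589 to 12.3). No interval was computed for the 3.58% and 3.44%, and whether composition accounts for the difference was not tested. Among the 45 proliferating Zfp36_KO cells without a class, 19 tied between marker lists, 12 were lymphoid cells with markers of myeloid, B or plasma cells, and 14 had too few markers. The 18 such WT cells split into 10, 6 and 2 for the same reasons. The 12 mixed Zfp36_KO cells had a median of 33758 UMIs, and whether they were doublets was not tested beyond the doublet score.

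Depth moved with the call in every class. Proliferating ILC2 had a median of 10168 UMIs in Zfp36_KO and 13600 UMIs in WT, against 5784 UMIs for other ILC2 in Zfp36_KO and 6243 UMIs in WT. When each cell was thinned to 2000 UMIs, 62 of 3150 Zfp36_KO cells (1.97%) and 44 of 3280 WT cells (1.34%) kept 2 UMIs of Mki67 and Top2a, with 152 Zfp36_KO and 80 WT cells too shallow to enter. Thinned ILC2 gave 18 of 1140 (1.58%) in Zfp36_KO and 8 of 630 (1.27%) in WT, and thinned ILC3 gave 5 of 1050 (0.476%) in Zfp36_KO and 4 of 945 (0.423%) in WT. Thinned ILC1/NK gave 1 of 161 (0.621%) in Zfp36_KO and 2 of 188 (1.06%) in WT, the opposite order to the unthinned shares. Plasma cells were far deeper, at medians of 31529 UMIs in Zfp36_KO and 39568 UMIs in WT. Thinned, they gave 3 of 145 (2.07%) in Zfp36_KO and 0 of 97 in WT. Thinned macrophages gave 3 of 105 (2.86%) in Zfp36_KO and 0 of 43 in WT. Thinned dendritic cells gave 17 of 168 (10.1%) in Zfp36_KO and 1 of 26 (3.85%) in WT. The order of the libraries was kept at equal depth for all cells together, with a difference of 0.627 points (0.00126 to 1.27). Defined by at least 2 UMIs of the 16 other G2/M members, proliferating cells made up 8.33% of Zfp36_KO cells and 7.26% of WT cells, a difference of 1.07 points whose interval of -0.22 to 2.36 held 0.

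Within ILC3, proliferating cells lay mostly among cells with Ncr1 UMIs. Ncr1 encodes the receptor NKp46, and Ccr6 marks the lymphoid tissue inducer-like ILC3. Ncr1-positive ILC3 had 7 proliferating of 378 (1.85%, 0.748 to 3.78) in Zfp36_KO and 10 of 341 (2.93%, 1.42 to 5.33) in WT. Ncr1-negative ILC3 had 3 of 717 (0.418%) in Zfp36_KO and 0 of 620 in WT, where a count of 0 allows a share of up to 0.484% by a limit of 3 counts, and 0.593% is the upper end of the exact interval. Ccr6-positive ILC3 had 0 of 331 in Zfp36_KO, which allows up to 0.906% by the same limit, with an exact upper end of 1.11%, and 2 of 417 (0.480%) in WT. ILC3 without a Ccr6 UMI had 10 of 764 (1.31%) in Zfp36_KO and 8 of 544 (1.47%) in WT. Both libraries thus placed most dividing ILC3 in the Ncr1-positive and Ccr6-negative cells, which were also the deeper ones, at medians of 5162 against 3293 UMIs by Ncr1 in Zfp36_KO and 5361 against 4163 UMIs in WT.

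ILC2 with and without Il13 UMIs both divided. Those with an Il13 UMI had 12 of 228 (5.26%) in Zfp36_KO and 7 of 127 (5.51%) in WT, and those without had 28 of 922 (3.04%) in Zfp36_KO and 11 of 508 (2.17%) in WT. Among WT cells of the T cell gate, those with UMIs of Foxp3, the factor of regulatory T cells, had 11 of 116 (9.48%, 4.83 to 16.3) and those without had 28 of 991 (2.83%, 1.89 to 4.06), at medians of 5200 and 5047 UMIs. Dendritic cells with UMIs of Cd209a, a lectin gene of type 2 dendritic cells, had 37 of 107 (34.6%) in Zfp36_KO and 4 of 16 (25%) in WT.

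Nearly all G2/M transcripts lay in the few proliferating cells, while S phase transcripts were spread more widely. For the 16 G2/M members that did not define the cells, the median share of UMIs in proliferating cells was 92.1% in Zfp36_KO (55.3 to 98.5) and 92.0% in WT (33.0 to 98.5). Cenpa, the centromeric histone, was the member with the lowest share. For the 12 S phase members the median was 51.2% in Zfp36_KO (34.1 to 94.8) and 41.9% in WT (23.6 to 93.6). Stmn1, a protein that destabilises microtubules, had 86.0% of its UMIs in proliferating cells in Zfp36_KO and 84.6% in WT. The D cyclins and the kinase inhibitors lay mostly outside them, with medians of 12.8% in Zfp36_KO and 6.90% in WT for the 3 D cyclins.

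Compared with other cells of the same classes, proliferating cells had higher CPM of every S phase and G2/M member in both libraries. In the log2 ratio of proliferating over other cells, S phase members ranged from 1.38 (Mcm4) to 6.75 (Rrm2) in Zfp36_KO and from 1.70 (Mcm4) to 7.25 (Pclaf) in WT. Mcm4 is a helicase subunit, Rrm2 the regulated subunit of ribonucleotide reductase, and Pclaf a partner of the sliding clamp PCNA. The 16 G2/M members ranged from 2.93 (Cenpa) to 9.31 (Plk1) in Zfp36_KO and from 2.19 (Cenpa) to 9.15 (Ccna2) in WT. Plk1 is a mitotic kinase and Ccna2 encodes cyclin A2. Mki67 and Top2a, which chose the cells, are left out, and since both are G2/M genes the rule favours cells with other G2/M transcripts.

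**Figure D2:**
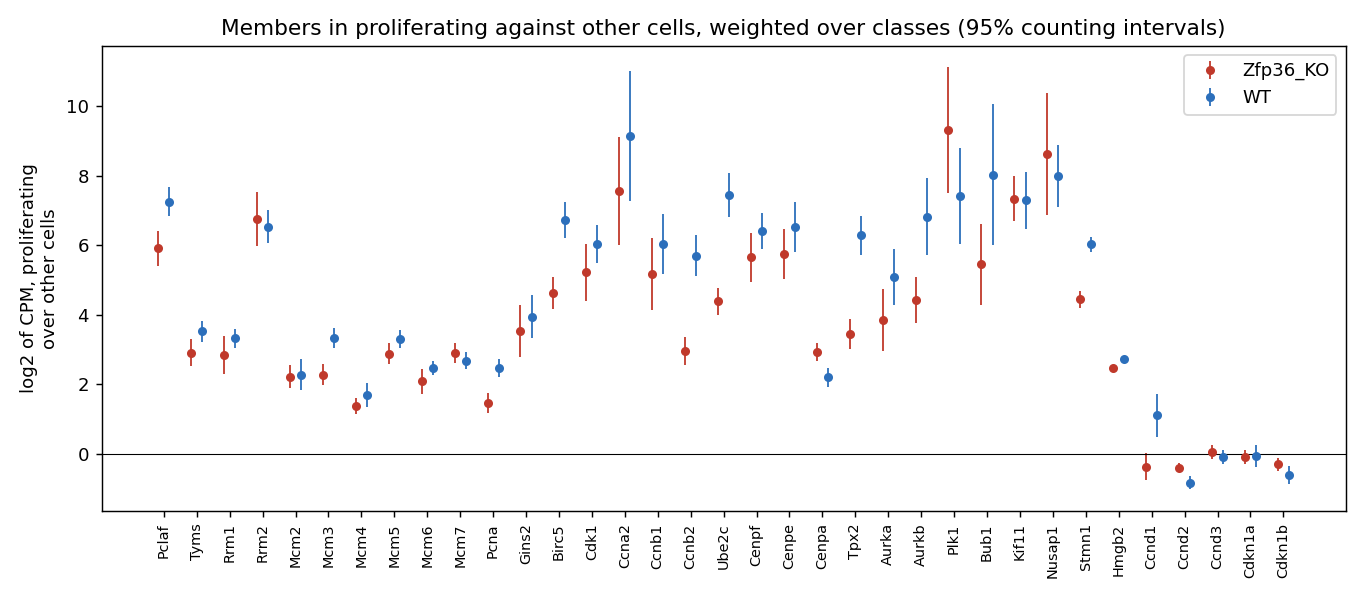
Log2 ratio of CPM in proliferating over other cells for 35 members, weighted over classes, Zfp36_KO left and WT right of each pair with counting intervals. S phase and G2/M members lie above 0 in both libraries, and Ccnd2 and Cdkn1b lie below 0 in both, at -0.41 and -0.31 in Zfp36_KO and -0.84 and -0.62 in WT.

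Some members showed no such rise. Cdkn1b, which encodes the kinase inhibitor p27, had lower CPM in proliferating cells, with a log2 ratio of -0.31 (-0.51 to -0.12) in Zfp36_KO and -0.62 (-0.88 to -0.36) in WT. Ccnd2, which encodes cyclin D2, also had lower CPM, with -0.41 in Zfp36_KO and -0.84 in WT. Proliferating cells were deeper, with 1.76-fold the median UMIs of other ILC2 in Zfp36_KO and 2.18-fold in WT. A lower CPM is therefore a smaller part of the transcripts and need not be fewer UMIs per cell. Ccnd3 (cyclin D3) and Cdkn1a, which encodes the inhibitor p21 induced by p53, had intervals that held 0 in both libraries. Ccnd1 (cyclin D1) had -0.38 in Zfp36_KO, with an interval that reached 0, and 1.10 (0.48 to 1.72) in WT. Within ILC2, however, Cdkn1a was higher in proliferating cells, at 61.4 against 31.8 CPM in other cells in Zfp36_KO and 185 against 65.8 CPM in WT. In WT cells of the T cell gate Cdkn1a was lower in proliferating cells, at 25.9 against 83.3 CPM in other cells.

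Proliferating cells were spread over S phase and G2/M in both libraries. With Mki67 and Top2a left out, 107 of 175 Zfp36_KO cells (61.1%, 53.5 to 68.4) and 57 of 102 WT cells (55.9%, 45.7 to 65.7) had more S phase than G2/M UMIs. Summed over these cells, S phase members gave 47.2% of the S phase and G2/M UMIs in Zfp36_KO and 46.7% in WT. ILC2 had 24 of 40 cells with more S phase UMIs in Zfp36_KO and 14 of 18 in WT, and dendritic cells 32 of 48 in Zfp36_KO and 1 of 4 in WT. The share intervals overlapped between the libraries. Thinned to 2000 UMIs, the share with more S phase UMIs was 35.5% of 62 Zfp36_KO cells and 50% of 44 WT cells, so the order of the libraries was the opposite at equal depth.

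**Figure D3:**
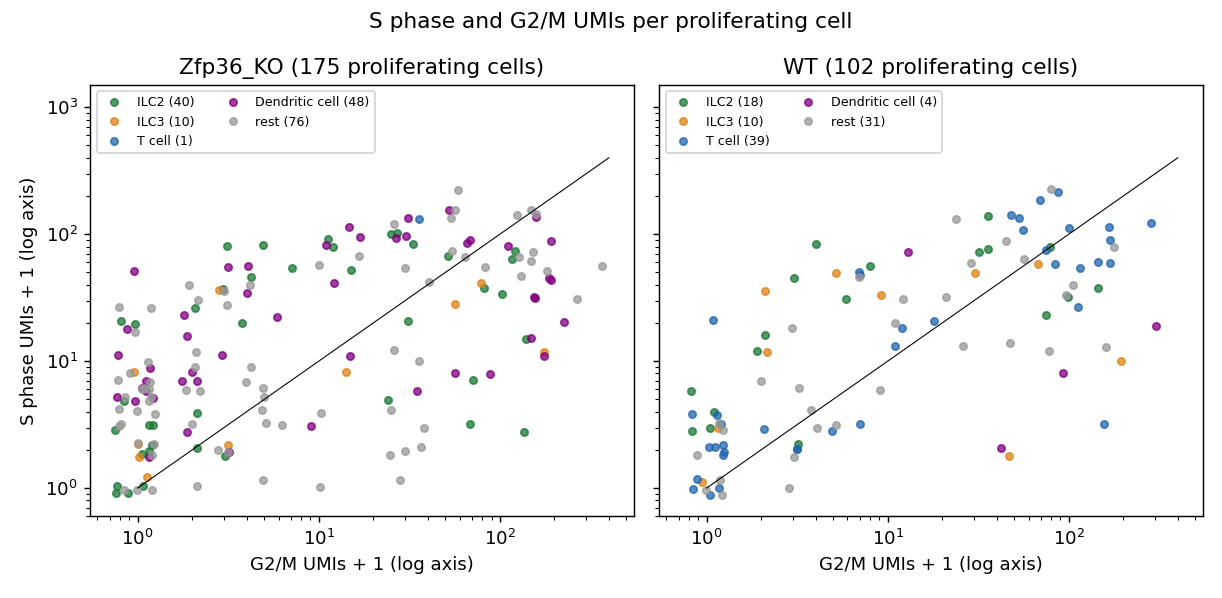
S phase UMIs against G2/M UMIs (Mki67 and Top2a left out, each plus 1, log axes, slight random offset) in each proliferating cell, Zfp36_KO left and WT right, coloured by class; the line marks equal numbers. Cells without a G2/M UMI, 52 in Zfp36_KO and 25 in WT, stand at the left edge, and cells rich in G2/M UMIs at the right.

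Some cells rich in S phase UMIs fell outside the Mki67 and Top2a rule, and so are not in the plot of S phase against G2/M UMIs. Cells with at least 10 S phase UMIs numbered 148 of 3302 (4.48%) in Zfp36_KO and 95 of 3360 (2.83%) in WT, and 38 of these in Zfp36_KO and 24 in WT had no Mki67 or Top2a UMI. In ILC2, 48 cells (4.17%) in Zfp36_KO and 29 cells (4.57%) in WT reached 10 S phase UMIs. Of such ILC2, 18 in Zfp36_KO and 11 in WT had no Mki67 or Top2a UMI. The rule missed these cells. It also missed any with such a UMI that stayed below its threshold, which were not counted.

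Module levels were compared as CPM of the summed UMIs of a class, in the 3 classes with at least 100 cells in each library. A log2 ratio of Zfp36_KO over WT had a median over all genes of 0.18 in ILC2, 0.16 in ILC3 and 0.13 in ILC1/NK, so a ratio near those values is no shift against the class. In ILC2 the S phase members summed to 416 CPM in Zfp36_KO and 389 CPM in WT, a log2 ratio of 0.10 (0.01 to 0.18), which is below the class median. The G2/M members summed to 285 CPM in Zfp36_KO and 217 CPM in WT in ILC2, a log2 ratio of 0.39 (0.28 to 0.51). In ILC3 the S phase sum was 270 CPM in Zfp36_KO and 256 CPM in WT, and the G2/M sum 164 CPM in Zfp36_KO and 154 CPM in WT, with log2 ratios of 0.08 and 0.09 whose intervals held 0. In ILC1/NK the S phase sum was 492 CPM in Zfp36_KO and 342 CPM in WT (log2 0.52, 0.32 to 0.73), and the G2/M sum 433 CPM in Zfp36_KO and 239 CPM in WT (log2 0.86, 0.62 to 1.10).

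Single cells carried much of these sums, while the intervals treat each UMI as a separate count and leave out the sampling of cells. The share of proliferating ILC2, counted by cells, had a log2 ratio of 0.30 with a wider interval of -0.50 to 1.09. The richest cell held 9.65% of the ILC2 G2/M UMIs in Zfp36_KO and 24.1% in WT, 31.6% of those of ILC3 in Zfp36_KO and 37.8% in WT, and 59.0% of those of ILC1/NK in Zfp36_KO and 59.1% in WT. Without proliferating cells the G2/M sum in ILC2 was 36.9 CPM in Zfp36_KO and 32.3 CPM in WT, and in ILC1/NK 78.2 CPM in Zfp36_KO and 68.4 CPM in WT. Fewer dividing cells and fewer transcripts per dividing cell cannot be told apart in these class sums. In ILC3 the ratio depended on the gate: with mixed lymphoid cells kept the G2/M log2 ratio was 0.79, and with classes from clusters it was -0.99.

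In ILC2, 36 of 37 members had at least 20 UMIs over both libraries, of which 9 stood 1.5-fold or more above WT in Zfp36_KO and 3 as far below. The same fold was passed by 17.7% of all genes upwards and 4.95% downwards, 22.6% together. Of the 18 G2/M members 7 were higher and 1 lower, and of the 12 S phase members 1 was higher. Top2a had 70.8 CPM in Zfp36_KO and 41.8 CPM in WT (log2 0.76, 0.51 to 1.01). Mki67 had 37.5 CPM in Zfp36_KO and 32.9 CPM in WT, with an interval of -0.11 to 0.49. So the 2 genes that define a proliferating cell differed in their ratios.

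Other mitotic members of ILC2 stood higher from few UMIs. Cenpf, a kinetochore protein gene, had 18.9 CPM in Zfp36_KO and 10.3 CPM in WT (log2 0.88, 0.38 to 1.40), and Cenpe, a kinetochore motor gene, had 13.7 CPM in Zfp36_KO and 8.22 CPM in WT (log2 0.74). Ccnb1, which encodes cyclin B1, had 35 UMIs in Zfp36_KO and 9 UMIs in WT (log2 1.26, 0.18 to 2.51), and without proliferating cells its ratio turned to -0.68. Cdk1, the kinase that drives entry into mitosis, was lower, at 7.20 CPM in Zfp36_KO and 13.0 CPM in WT (log2 -0.86, -1.43 to -0.28). The class sums of the kinase gene Cdk1 and the cyclin gene Ccnb1 therefore moved in opposite directions. In ILC2 thinned to equal depth, Cdk1 was detected in 3 of 1140 Zfp36_KO and 4 of 630 WT cells. Ccnb1 was detected in 4 of 1140 Zfp36_KO and 1 of 630 WT cells. The intervals were -1.37 to 0.267 points for Cdk1 and -0.573 to 0.755 points for Ccnb1, so neither difference was detectable with these cells. Mcm4 had 41.6 CPM in Zfp36_KO and 27.4 CPM in WT (log2 0.60), and Stmn1 had 64.3 CPM in Zfp36_KO and 112 CPM in WT (log2 -0.80, -0.99 to -0.61).

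In ILC3, 33 members had at least 20 UMIs, of which 5 stood 1.5-fold or more above WT in Zfp36_KO and 5 as far below, against 16.1% of all genes above and 5.59% below, 21.7% together. Ccnb1, Plk1, Bub1 and Ccnd1 had too few UMIs. Top2a had 26.4 CPM in Zfp36_KO and 16.4 CPM in WT (log2 0.69, 0.27 to 1.13), and with classes from clusters its ratio turned to -0.84. Mki67 had 19.7 CPM in Zfp36_KO and 17.9 CPM in WT, a log2 ratio of 0.14 with an interval that held 0. Mcm4 had 30.8 CPM in Zfp36_KO and 20.5 CPM in WT (log2 0.59), as in ILC2. Mcm4 was thus the S phase member above 1.5-fold in both ILC2 and ILC3. Cenpe and the spindle motor gene Kif11 were also past 1.5-fold upwards in ILC3, and Cdk1 downwards, with intervals that held 0.

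Members lower in Zfp36_KO ILC3 included Pclaf, with 8.30 CPM in Zfp36_KO and 16.4 CPM in WT (log2 -0.98, -1.58 to -0.40). Stmn1 had 28.6 CPM in Zfp36_KO and 54.1 CPM in WT (log2 -0.92, -1.23 to -0.61), so its CPM was lower in ILC2 and ILC3 alike. Stmn1 was found in 2.92% of Zfp36_KO and 3.33% of WT ILC3, and the richest ILC3 cell held 78 UMIs. In ILC2 thinned to equal depth it was detected in 2.46% of Zfp36_KO and 3.97% of WT cells. The interval of that difference ran from -3.48 to 0.146 points. Cenpf had 9.39 CPM in Zfp36_KO and 15.7 CPM in WT (log2 -0.74), and this direction turned under 3 other class gates, with log2 ratios of 0.062, 0.24 and 0.22. A single cell held 42 of the 72 Cenpf UMIs of WT ILC3. Hmgb2, which encodes a DNA-bending chromatin protein, had 302 CPM in Zfp36_KO and 376 CPM in WT in ILC3 (log2 -0.32, -0.42 to -0.21), and 476 CPM in Zfp36_KO and 540 CPM in WT in ILC2 (log2 -0.18).

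In ILC1/NK, 29 members had at least 20 UMIs, of which 13 stood 1.5-fold or more above WT in Zfp36_KO and 0 as far below, against 18.3% of all genes above and 8.27% below, 26.5% together. This share rests on few cells. Ube2c, a ubiquitin-conjugating enzyme of the anaphase-promoting complex, had 26 UMIs in Zfp36_KO and 13 UMIs in WT, and 24 of the 26 were in 1 cell. Rrm2 had 33 UMIs in Zfp36_KO and 13 UMIs in WT, with 27 of the 33 in 1 cell, and Pclaf had 38 UMIs in Zfp36_KO and 16 UMIs in WT, with 24 of the 38 in 1 cell. Averaged over cells, the Pclaf ratio turned to -0.10. Nusap1, a spindle protein gene, had 19 UMIs in Zfp36_KO and 5 UMIs in WT (log2 2.32, 0.85 to 4.10).

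Top2a and Rrm1 were detected in a larger share of ILC1/NK cells than Ube2c, Rrm2, Pclaf and Nusap1. Even so, a single cell held 46 of the 75 Top2a UMIs of Zfp36_KO ILC1/NK. Top2a had 91.8 CPM in Zfp36_KO and 42.8 CPM in WT (log2 1.10, 0.55 to 1.66), and UMIs in 8.82% of Zfp36_KO cells and 6.32% of WT cells. Rrm1, the large subunit of ribonucleotide reductase, had 55.1 CPM in Zfp36_KO and 26.0 CPM in WT (log2 1.08), and UMIs in 15.3% of Zfp36_KO cells and 8.95% of WT cells. Mki67 had 53.8 CPM in Zfp36_KO and 36.3 CPM in WT in ILC1/NK, with an interval that held 0.

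**Figure D4:**
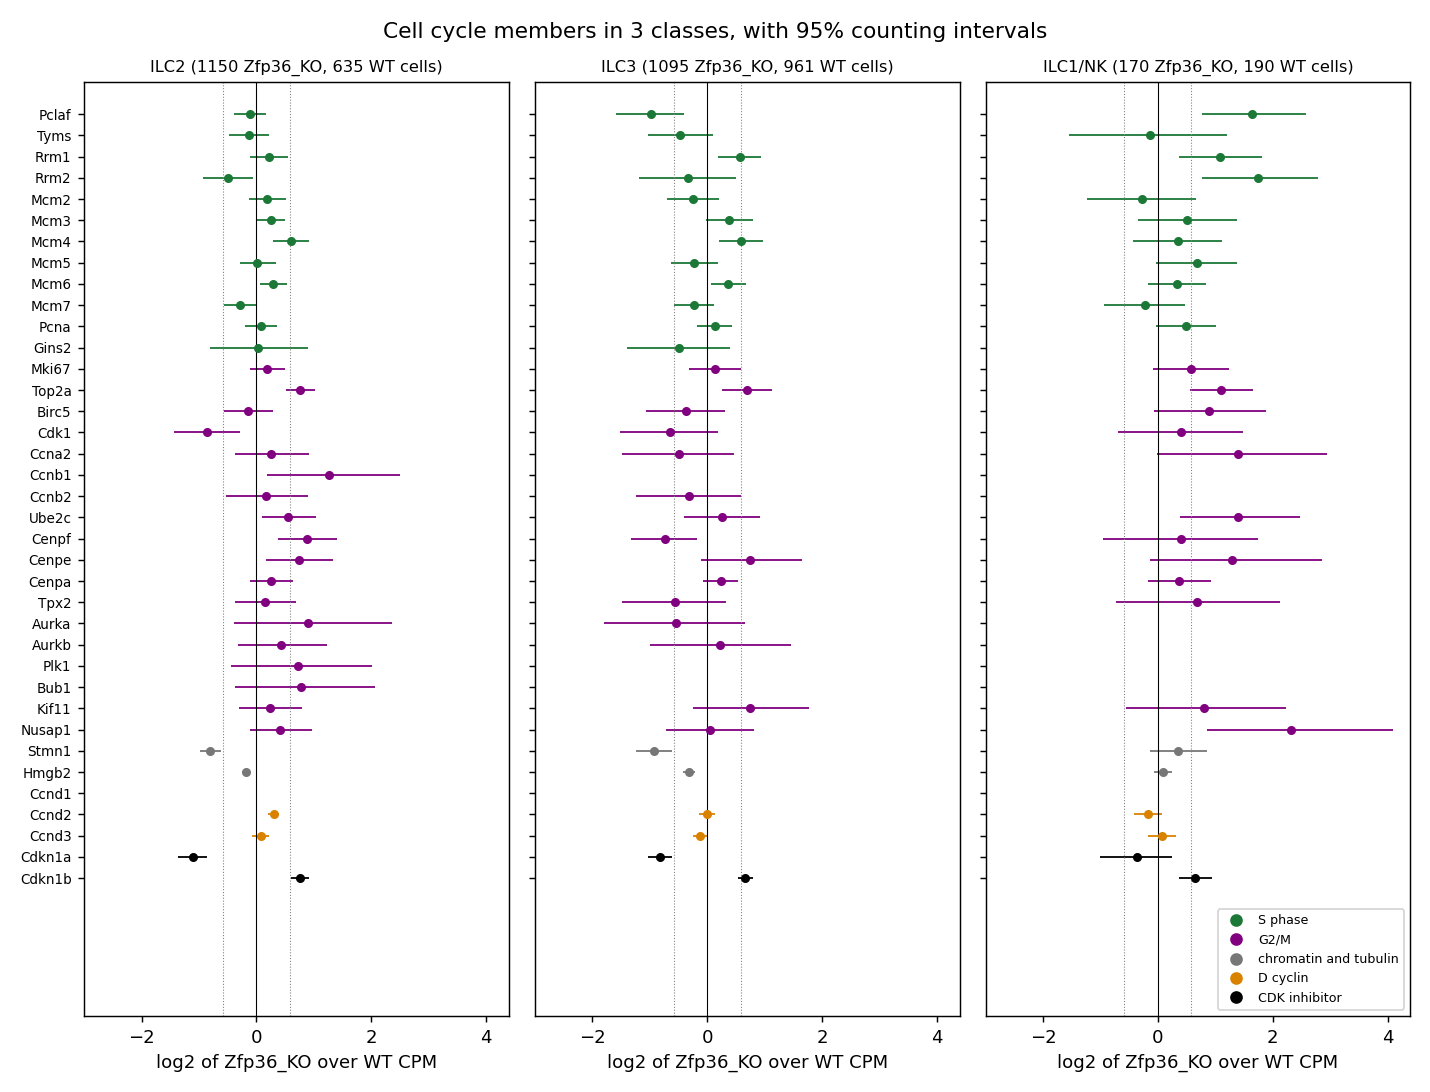
Log2 ratio of Zfp36_KO over WT CPM for each member with at least 20 UMIs in ILC2, ILC3 and ILC1/NK, coloured by role; bars are counting intervals and dotted lines mark 1.5-fold. Cdkn1b lies right of 0 in all 3 classes, from 0.65 to 0.76, and Cdkn1a left of 0, from -1.11 to -0.36.

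Both kinase inhibitors differed between the libraries in ILC2 and ILC3, in opposite directions, as the plot of members by class shows. Cdkn1b was higher in Zfp36_KO in all 3 ILC classes. In ILC2 it had 179 CPM in Zfp36_KO and 106 CPM in WT (log2 0.76, 0.60 to 0.91), in ILC3 266 CPM in Zfp36_KO and 168 CPM in WT (log2 0.66, 0.53 to 0.80), and in ILC1/NK 270 CPM in Zfp36_KO and 172 CPM in WT (log2 0.65, 0.36 to 0.94). These ratios also stand above the class medians of all genes. At 2000 UMIs per cell, Cdkn1b was detected in 28.8% of Zfp36_KO and 17.1% of WT ILC2, a difference of 11.6 points (7.58 to 15.5), with 10 Zfp36_KO and 5 WT cells left out. The thinned ILC3 shares were 42.0% in Zfp36_KO and 28.7% in WT, a difference of 13.3 points (9.14 to 17.4), with 45 Zfp36_KO and 16 WT cells left out. The thinned ILC1/NK shares were 42.2% in Zfp36_KO and 26.1% in WT, with 9 Zfp36_KO and 2 WT cells left out. Without thinning, Cdkn1b was detected in 62.3% of Zfp36_KO and 46.1% of WT ILC2, and in 61.7% of Zfp36_KO and 51.6% of WT ILC3. In plasma cells, where Cdkn1b was scarce, the thinned shares were 5.52% in Zfp36_KO and 2.06% in WT.

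Cdkn1a was lower in Zfp36_KO ILC2 and ILC3. It had 33.7 CPM in Zfp36_KO and 72.9 CPM in WT in ILC2 (log2 -1.11, -1.36 to -0.86), and 66.2 CPM in Zfp36_KO and 117 CPM in WT in ILC3 (log2 -0.82, -1.03 to -0.61). Thinned to 2000 UMIs, it was detected in 7.81% of Zfp36_KO and 14.6% of WT ILC3, and in 5.18% of Zfp36_KO and 7.78% of WT ILC2. In ILC1/NK it had 44.1 CPM in Zfp36_KO and 56.7 CPM in WT, with an interval that held 0. Cdkn1a ran the other way in dendritic cells, with 140 CPM in Zfp36_KO and 41.8 CPM in WT, and in macrophages, with 243 CPM in Zfp36_KO and 182 CPM in WT. No class comparison was made there because the WT library held 26 dendritic cells and 46 macrophages.

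**Figure D5:**
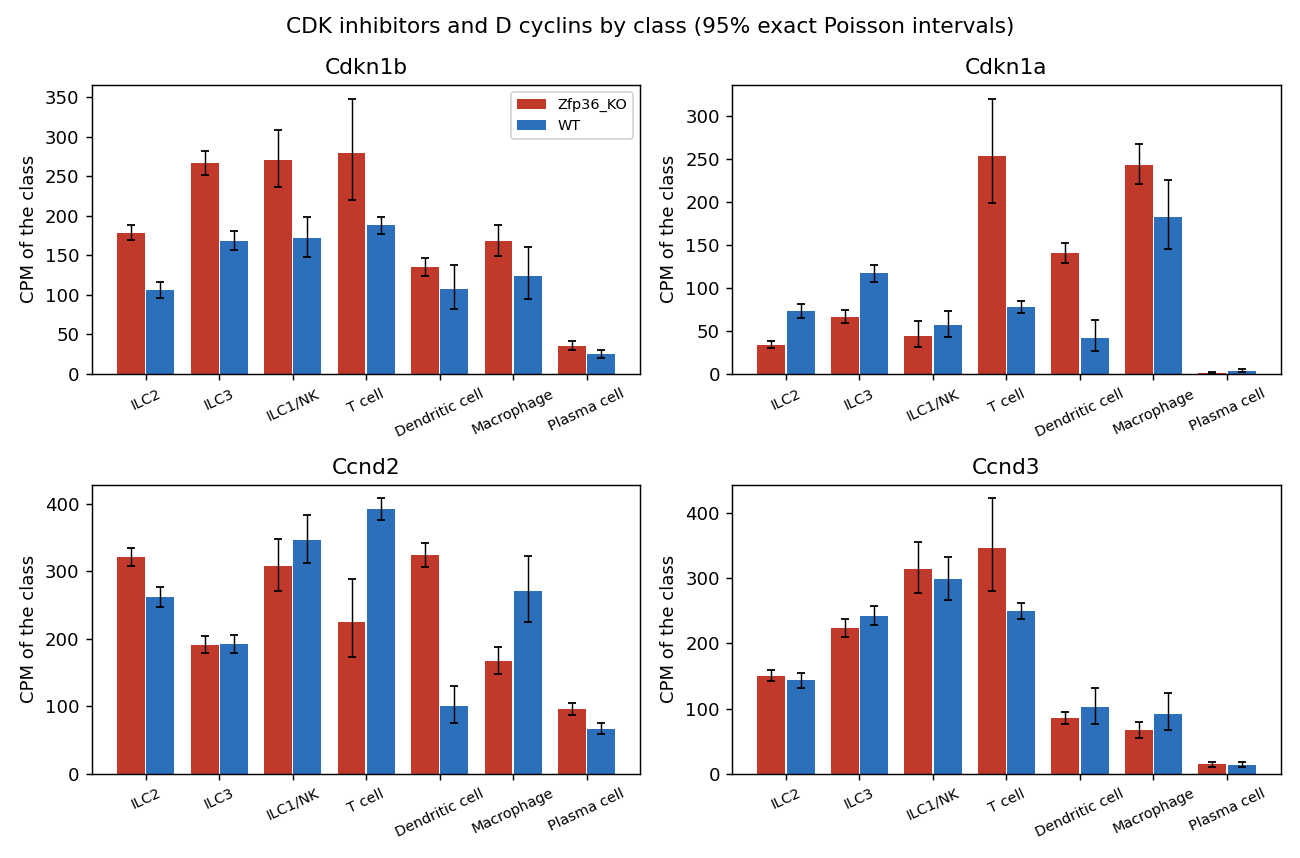
CPM of Cdkn1b, Cdkn1a, Ccnd2 and Ccnd3 in each class, Zfp36_KO left and WT right, 1 library each; bars start at 0 and whiskers are exact Poisson intervals. The Cdkn1b bars are taller in Zfp36_KO in every class drawn, and the Cdkn1a bars are shorter in Zfp36_KO in ILC2, at 33.7 against 72.9 CPM, and in ILC3, at 66.2 against 117 CPM.

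The D cyclins, the partners of CDK4 and CDK6 that link growth signals to the cycle, differed less. Ccnd2 had 321 CPM in Zfp36_KO and 261 CPM in WT in ILC2 (log2 0.30, 0.20 to 0.40), and 191 CPM in Zfp36_KO and 192 CPM in WT in ILC3. Ccnd3 had 151 CPM in Zfp36_KO and 143 CPM in WT in ILC2, and 224 CPM in Zfp36_KO and 242 CPM in WT in ILC3, with intervals that held 0. Ccnd1, which encodes cyclin D1, had at most 9 UMIs in a library in ILC2, ILC3 and ILC1/NK, and was found in dendritic cells, with 64.0 CPM in Zfp36_KO and 131 CPM in WT. No D cyclin passed 1.5-fold in these 3 classes, and cyclin D2 was the D cyclin whose interval left out 0 in ILC2.

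In the smaller classes the module is given as values. Dendritic cells had 659 CPM of S phase and 998 CPM of G2/M members in Zfp36_KO, and 361 CPM of S phase and 1059 CPM of G2/M members in WT, where 1 cell held 61.7% of the G2/M UMIs. Mki67 had 141 CPM in Zfp36_KO and 72.6 CPM in WT dendritic cells, and was detected in 42.0% of Zfp36_KO and 30.8% of WT dendritic cells. Mki67 had 52.4 CPM in Zfp36_KO and 8.58 CPM in WT macrophages, and 31.8 CPM in Zfp36_KO and 9.98 CPM in WT plasma cells. The G2/M sum of dendritic cells stood above that of all 3 ILC classes in both libraries.

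Of 86 other cell cycle genes, 76 had at least 20 UMIs in ILC2, with 19 of them 1.5-fold or more above WT in Zfp36_KO and 2 as far below. Over all genes of ILC2, 17.7% stood as far above and 4.95% as far below. In ILC3 67 were measured, 8 higher and 11 lower, against 16.1% and 5.59% of all genes. In ILC1/NK 42 were measured, 10 higher and 6 lower, against 18.3% and 8.27% of all genes. The ILC2 genes past 2-fold were all higher in Zfp36_KO. Kif20a, a cytokinesis motor gene, had 29 UMIs in Zfp36_KO and 3 UMIs in WT, Hmmr, a spindle protein gene, had 10.4 CPM in Zfp36_KO and 3.88 CPM in WT, and Aspm, a spindle pole gene, had 6.77 CPM in Zfp36_KO and 2.28 CPM in WT. Cdc20, an activator of the anaphase-promoting complex, had 8.04 CPM in Zfp36_KO and 3.20 CPM in WT. Cdc6, an origin licensing factor, had 7.20 CPM in Zfp36_KO and 2.74 CPM in WT, and Cdc25a, a phosphatase that activates cyclin-dependent kinases, had 11.7 CPM in Zfp36_KO and 5.48 CPM in WT.

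In ILC3, Tk1, the thymidine kinase of S phase, had 2.84 CPM in Zfp36_KO and 8.72 CPM in WT (log2 -1.62, -2.65 to -0.69), and Ect2, a cytokinesis gene, had 6.12 CPM in Zfp36_KO and 2.62 CPM in WT. In ILC1/NK, Rb1, the gene of the retinoblastoma protein that restrains E2F, had 91.8 CPM in Zfp36_KO and 43.7 CPM in WT (log2 1.07, 0.53 to 1.63). Klf2, a quiescence and trafficking factor, had 84.4 CPM in Zfp36_KO and 177 CPM in WT (log2 -1.06, -1.48 to -0.66) in ILC1/NK. Cks1b and Cks2, the small subunits of cyclin-dependent kinases, ran apart in ILC1/NK, with log2 ratios of 1.84 and -1.05, and Cdca8, a subunit of the chromosomal passenger complex, had 1.40. A single cell held 18 of the 30 Cks1b UMIs of Zfp36_KO ILC1/NK.

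The transcripts that went most closely with proliferating cells were also cell cycle genes. Of 3982 genes with at least 50 UMIs in proliferating cells of both libraries, 34 were members other than Mki67 and Top2a, and 15 of these were among the first 60 by the lower end of the interval, taken from the library where that end was lower. The leading genes outside the module included Esco2, Pbk, Neil3, Kif4, Ncapg, Sgo1, Ncaph, Cep55 and Cit. Esco2, which acetylates cohesin in S phase, had a log2 ratio of 9.67 in Zfp36_KO and 9.36 in WT, and Pbk, a mitotic kinase gene, 10.8 in Zfp36_KO and 8.73 in WT. The condensin subunit gene Ncapg had 6.21 in Zfp36_KO and 7.40 in WT. The other 6 named genes lay between 5.87 and 7.66 in Zfp36_KO and between 5.59 and 7.73 in WT.

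Cytokine transcripts in proliferating ILC2 are given beside those in other ILC2 of the same library, and no difference between libraries was tested. Csf2, the gene of GM-CSF, had 138 CPM in proliferating and 366 CPM in other Zfp36_KO ILC2, and 1257 CPM in proliferating and 928 CPM in other WT ILC2. Areg, the gene of amphiregulin, had 146 and 300 CPM in proliferating and other Zfp36_KO ILC2, and 1099 and 659 CPM in WT ILC2, where 170 of 285 UMIs of proliferating cells were in 1 cell. Il5 was higher in proliferating cells of both libraries, at 27.5 against 12.4 CPM in Zfp36_KO and 174 against 43.9 CPM in WT. These values rest on few cells, as 7 of 40 proliferating Zfp36_KO ILC2 and 8 of 18 in WT had an Il5 UMI. Il13 had 48.7 and 130 CPM in proliferating and other Zfp36_KO ILC2, and 112 and 139 CPM in WT ILC2. Ifng had no UMI in 40 proliferating Zfp36_KO ILC2, against 48.2 CPM in other cells, and none in 18 proliferating WT ILC2, against 36.9 CPM. Gzma, a granzyme gene, had 832 and 1930 CPM in proliferating and other Zfp36_KO ILC2, and Myc, a growth regulator, had 31.8 and 45.5 CPM there and 42.4 and 39.1 CPM in WT, with intervals that held 0 for Myc.

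Il7r, the receptor of the survival cytokine IL-7, had lower CPM in proliferating ILC2 and ILC3 of both libraries and in proliferating WT cells of the T cell gate. Proliferating cells of these classes were also deeper, and UMIs per cell were not compared. Il7r had 622 CPM in proliferating and 1024 CPM in other Zfp36_KO ILC2, and 675 and 1115 CPM in WT ILC2. In ILC3 it had 1473 and 2551 CPM in proliferating and other Zfp36_KO cells, and 1364 and 2565 CPM in WT cells. In WT cells of the T cell gate it had 254 CPM in proliferating and 1521 CPM in other cells. Il2ra, the alpha chain of the IL-2 receptor, had 163 and 239 CPM in proliferating and other Zfp36_KO ILC2, and 135 and 203 CPM in WT ILC2. Il22 in proliferating ILC3 rested on 146 UMIs in Zfp36_KO, 137 of them in 1 cell, and stood at 1680 against 3037 CPM in other Zfp36_KO cells and 1640 against 1434 CPM in WT. Zfp36 itself had 222 and 353 CPM in proliferating and other Zfp36_KO ILC2, and 594 and 762 CPM in WT ILC2.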

How the data were processed

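Libraries were made with the Chromium 3′ kit, and counted with Cell Ranger 3.1.0 per the file headers and against mm10 per the submitters' processing notes. The deposited values are UMI counts per gene and cell in filtered matrices, as the authors left them, and other upstream settings are not given in the sources used here. Cells with fewer than 500 genes or over 10% mitochondrial UMIs were removed, as were cells with a Scrublet score above 0.3 (37 per library), chosen because the automatic threshold found 5 cells in Zfp36_KO. A cell took the class with the most detected markers, at least 3 and 1 more than the next list, and lymphoid cells with more than 2 markers of macrophages, dendritic, B or plasma cells stayed unclassed. This gate was set after seeing the data, and the members and lists were chosen with earlier results of these data known. Levels are summed CPM per class, with exact binomial (Clopper-Pearson), Newcombe and split-of-UMI intervals. Thinning drew 2000 UMIs per cell without replacement. A ratio against 0 UMIs uses a floor of 3. Ratios of proliferating over other cells set the UMIs found against those expected from the other cells of each class, summed over classes. Named genes were Mki67 and Top2a, members at least 1.5-fold apart with at least 20 UMIs and an interval without 0, other cell cycle genes at least 2-fold apart (at most 10 per class, by the end of the interval nearest 0), 10 genes ranked with proliferating cells (1 is not reported here), and the listed effector genes. Other genes are named by role, and values outside this rule were chosen after they were seen. The ratio calculation was tested on simulated data. Alternatives covered the call, the class gate, Leiden clusters made without cell cycle genes, depth, filters, doublets, sex type and scaling. Python 3.11.15, scanpy 1.11.5, scipy 1.17.1 and leidenalg 0.10.2 were used.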

Additional observations from a re-analysis of the deposited data

How the results depend on the processing

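With 1 library per genotype, no difference has a replicate check, and genotype cannot be told apart from pool, sex mix or sort. The alternatives without the exclusion of mixed lymphoid cells were added after seeing the data. All values here are log2 ratios of Zfp36_KO over WT unless named otherwise, and the cause of each change was not tested. Called by other G2/M members, the share over all cells had 0.20. After subtracting the median of all genes, the S phase level was -0.079 in ILC2 and -0.081 in ILC3, the G2/M level 0.22 in ILC2 and -0.070 in ILC3, and the members 1.5-fold apart came to 4 higher in ILC2, and 1 higher and 10 lower in ILC3. With classes from clusters, the S phase level was -0.030 in ILC2 and 0.0015 in ILC1/NK, the G2/M level 0.24 in ILC2, -0.99 in ILC3 and 0.35 in ILC1/NK, and Top2a in ILC3 -0.84. With cells of female type, the S phase level in ILC2 was 0.22 and the G2/M level in ILC3 0.27. Without proliferating cells, the S phase level was 0.25 in ILC3 and 0.14 in ILC1/NK, the G2/M level 0.19 in ILC2 and 0.19 in ILC1/NK, and Ccnb1 in ILC2 -0.68. With the mean of CPM per cell, ILC1/NK had an S phase level of 0.17, a G2/M level of 0.028 and a Pclaf ratio of -0.10. With a stricter class gate, the S phase level was 0.87 in ILC1/NK, the G2/M level 0.81 in ILC2 and 2.40 in ILC1/NK, and Cenpf in ILC3 0.062. Without the richest cell of each library, the S phase level in ILC1/NK was 0.15 and the G2/M level in ILC2 0.64. Thinned to 2000 UMIs, 35.5% of Zfp36_KO proliferating cells had more S phase UMIs. With at least 50 UMIs, 5 members were 1.5-fold higher in ILC2 and 5 in ILC1/NK. With mixed lymphoid cells kept, the S phase level was 0.21 in ILC3, the G2/M level 0.63 in ILC2 and 0.79 in ILC3, and Cenpf in ILC3 0.24, and with 2 markers as well these were 0.21, 0.63, 0.78 and 0.22. Cdkn1b stayed positive in every alternative run, at 0.58 to 0.78 in ILC2, 0.51 to 0.71 in ILC3 and 0.50 to 0.74 in ILC1/NK. Cdkn1a stayed negative, at -1.29 to -0.88 in ILC2 and -0.98 to -0.63 in ILC3. No paired analysis was possible because each genotype had 1 library and no result comes from a test.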
